A study of Mus musculus with 8 samples.

Results

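The 42 transcripts described here are used as markers of cells other than microglia in the adult mouse brain. All were read in RNA from sorted microglia. They comprise 11 neuron, 9 oligodendrocyte, 8 astrocyte, 9 choroid plexus and 5 endothelial genes, listed by name with earlier results of these data known. All 42 were among the 55573 genes of the count table, and 41 reached 10 counts in 4 or more of the 8 libraries, as did 20153 genes in all. The gene below that limit was *Cldn5*, a tight junction protein of brain endothelium, with 4.11 CPM (counts relative to the library's scaled total) in WT1, 0.960 in SmadKO1 and at most 0.081 in each of the other libraries. Values are CPM scaled by TMM factors, edgeR's correction for library composition.

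Microglia were sorted from brains of 4 mutant mice (SmadKO1 to SmadKO4; *Smad2/3 fl/fl;Cx3cr1 Cre*) and 4 controls (WT1 to WT4) at postnatal day 60. *Smad2* and *Smad3* are the transcription factors of canonical TGFβ signalling, and Cre expressed from the *Cx3cr1* locus recombines floxed alleles in microglia and in other cells that use *Cx3cr1*, such as border macrophages and some blood monocytes. The controls are wild-type by their labels, although by the Methods most controls of the study had Cre and 1 floxed allele. No other treatment is named. The paper points to a different deposit for its Smad2/3 microglia, so the match of these samples to its Methods rests on genotype, cell type and age. The Methods describe a Percoll gradient followed by flow cytometry on TdTomato, CD45 and CD11b. The series names as many mice as there are libraries and calls the controls littermates, and the Methods take replicates of the study from separate mice, but no label ties a library to a mouse or a litter. The p-values measure the spread between these libraries.

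Brain dissociation releases many cell types, along with myelin fragments, broken processes and free RNA, and a microglial sort is meant to leave them behind. Neurons, oligodendrocytes and astrocytes share the brain parenchyma. The choroid plexus is the epithelium in the ventricles that secretes cerebrospinal fluid, and endothelial cells line the vessels. In sorted bulk RNA, a marker's level cannot be assigned to whole cells of that type, to fragments or free RNA, or to transcription in the microglia themselves, and fewer cells of a type cannot be told apart from less RNA per cell.

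Between 35639502 and 41946479 reads were counted on genes per library, and 1 TMM-scaled CPM stood for 35.8 to 46.35 reads. *Smad3* stood at 39.4 to 56.8 CPM in controls and at 9.60 to 35.1 in mutants (log2 fold change -1.33, edgeR adjusted p = 0.0429), whereas *Smad2* stood at 62.7 to 92.3 and at 42.6 to 75.8 (-0.34, edgeR adjusted p = 0.34). All 13 microglia genes examined passed the count limit, and 8 were lower in mutants, from *Csf1r* at -1.33 to *Sall1* at -6.11 on the log2 scale. The other 5, *Aif1*, *Ptprc* and the 3 C1q genes, did not pass the test. *Xist* stood at 99.3 to 183 CPM in controls and at most 0.561 in mutants, and *Ddx3y* at 9.73 to 59.7 in mutants and at most 0.224 in controls. The labels give no sex, and sex-linked expression divided the libraries as genotype did, so sex and genotype cannot be told apart.

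Promoter sequences, which reach past the start, of a few members whose levels the results turn on are shown first. RefSeq promoter entries (build GRCm38.p6, 250 bases before to 50 after a start) were found for 28 of the 42 members and 36 starts. *Slc1a3* is shown because it was the only member that passed the main test. *Mobp* and *Opalin* are shown as myelin genes whose highest mutant library differed, and *Cnp* as a myelin gene whose level was steady among controls. In *Slc1a3* the capitals mark TAATTA, a homeodomain core, at position 24 after the start. In the other 3 they mark ACAAAG, or CTTTGT on the other strand, a core bound by SOX factors such as SOX10 of oligodendrocytes.
Slc1a3 (chr15:8710758-8711057, minus strand): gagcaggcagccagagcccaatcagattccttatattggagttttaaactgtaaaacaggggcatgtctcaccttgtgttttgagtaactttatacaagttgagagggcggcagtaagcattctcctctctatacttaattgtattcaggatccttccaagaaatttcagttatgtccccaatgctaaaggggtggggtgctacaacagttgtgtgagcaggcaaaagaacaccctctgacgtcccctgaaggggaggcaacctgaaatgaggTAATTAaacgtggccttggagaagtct
Mobp (chr9:120149492-120149791, plus strand): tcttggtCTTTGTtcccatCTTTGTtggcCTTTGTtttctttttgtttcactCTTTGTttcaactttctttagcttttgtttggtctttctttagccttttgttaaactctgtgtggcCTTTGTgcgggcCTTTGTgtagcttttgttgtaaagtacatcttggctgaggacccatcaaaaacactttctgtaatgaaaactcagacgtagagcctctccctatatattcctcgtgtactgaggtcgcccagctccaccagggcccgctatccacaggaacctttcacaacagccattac
Opalin (chr19:41077064-41077363, minus strand): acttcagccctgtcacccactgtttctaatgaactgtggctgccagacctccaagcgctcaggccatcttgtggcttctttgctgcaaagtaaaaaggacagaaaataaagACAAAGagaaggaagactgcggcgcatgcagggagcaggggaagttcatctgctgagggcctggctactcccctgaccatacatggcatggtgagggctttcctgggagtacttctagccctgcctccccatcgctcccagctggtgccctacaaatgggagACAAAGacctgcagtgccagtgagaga
Cnp (chr11:100574689-100574988, plus strand): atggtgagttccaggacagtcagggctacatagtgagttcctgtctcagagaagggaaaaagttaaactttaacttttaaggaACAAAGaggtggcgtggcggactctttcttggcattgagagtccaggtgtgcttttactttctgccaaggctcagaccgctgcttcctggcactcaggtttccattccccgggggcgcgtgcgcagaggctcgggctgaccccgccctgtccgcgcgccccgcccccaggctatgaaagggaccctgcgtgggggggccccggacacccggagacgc
The ACAAAG core occurred 6 times in the *Mobp* window, 2 times in that of *Opalin* and 1 time in that of *Cnp*. The second match of *Opalin* lies at position 24 after the start, and those of *Mobp* and *Cnp* lie before it. Each was sought on both strands.

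These windows and cores were picked after the values and matches had been seen, and a match is a description of letters only. Of 9 letter strings searched, ACAAAG stood in 8 of 36 member windows (22.2%) and in 18.7% of all 32851 windows. It was found at *Mobp*, *Opalin*, *Cnp* and *Mag* among the 8 oligodendrocyte members with an entry, at *Rbfox3* and *Syt1* among neuron members and at *Ly6c1*. The SMAD core CAGAC stood in 41.7% of member windows and 49.6% of all windows, and its longer form CAGACA, which contains it, in 11.1% and 21%. CAGAC was not among the letters of the *Slc1a3* window. The shares for ACAATG were 5.56% and 12.6%, for TAATCC 8.33% and 7.06%, for TAATTA 8.33% and 5.29% and for GAGGAAGT 2.78% and 3.20%. No member window held the forkhead core GTAAACA or the longer RFX X-box string, which stood in 3.65% and 0.563% of all windows.

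The classes differed by orders of magnitude in level. Summed over members, the choroid plexus class ranged from 7518 to 43640 CPM across the 8 libraries, the oligodendrocyte class from 667 to 4278, the astrocyte class from 195 to 1860, the neuron class from 64.9 to 617 and the endothelial class from 23.1 to 46.8. Without *Ttr*, the choroid plexus sum ranged from 445 to 2373 CPM. These sums are given by library and carry no test. Per kilobase of exon, *Ttr* was the member with the highest level, at 13330 CPM in controls and 27580 in mutants on average. The highest of the microglia genes examined, *C1qb* of the complement C1q complex, stood at 7135 and 6146 CPM per kilobase.

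**Figure D1:**
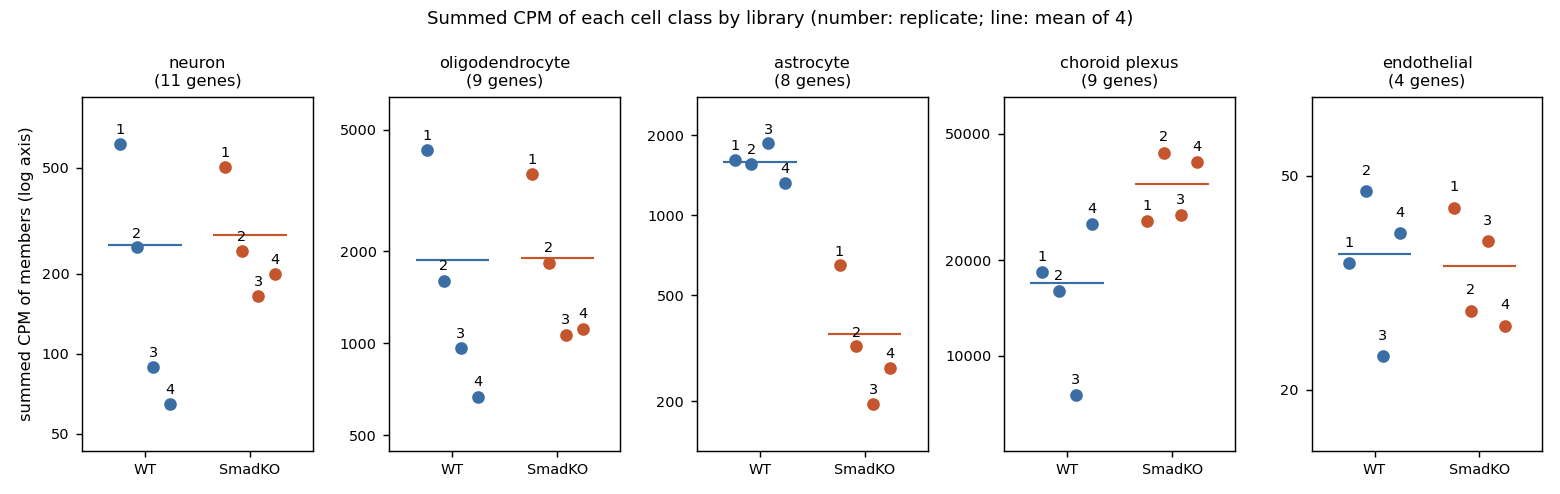
Summed CPM of the members of each class by library, on a log axis with a range of its own in each panel. Points are libraries numbered by replicate and lines are means of 4. WT1 and SmadKO1 are the highest of their groups in the neuron and oligodendrocyte panels, and WT3 is the lowest control in the choroid plexus panel.

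Neuronal transcripts varied far more between libraries of a group than between the groups. The summed neuron CPM was 617 in WT1, 251 in WT2, 89.5 in WT3 and 64.9 in WT4, and 505 in SmadKO1, 244 in SmadKO2, 166 in SmadKO3 and 200 in SmadKO4. WT1 was 9.51-fold above the lowest control, and SmadKO1 was 3.05-fold above the lowest mutant, while the group means differed by 1.09-fold. None of the 11 neuron members passed the test in either direction, none had an unadjusted p under 0.05 and DESeq2 called none, where edgeR called 12.3% of all genes tested. Of the 11, 7 had a fold change above 0, and the median log2 fold change was 0.062, beside 0.011 over all genes.

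*Camk2a* encodes the alpha subunit of a calcium-dependent kinase of excitatory synapses, whose mRNA is carried into dendrites. Its level was 304 CPM in WT1, 149 in WT2, 37.1 in WT3 and 28.6 in WT4, and 245 in SmadKO1, 114 in SmadKO2, 77.6 in SmadKO3 and 105 in SmadKO4. The groups overlapped over nearly their whole range (log2 fold change 0.062, SE 0.711, edgeR adjusted p = 0.97). *Snap25*, a SNARE protein of synaptic vesicle fusion, stood at 146, 54.0, 28.0 and 17.7 CPM in WT1 to WT4 and at 144, 58.7, 47.1 and 42.9 in SmadKO1 to SmadKO4. It too was highest in WT1 and SmadKO1, with a log2 fold change of 0.25 (SE 0.65, edgeR adjusted p = 0.847). WT1 was the highest control for 10 of the 11 neuron members, and SmadKO1 was the highest mutant for 8, each of them a gene for which WT1 also led. The member for which WT1 did not lead was the noncoding RNA *Meg3*, highest in WT3 and SmadKO2.

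The remaining neuron members were lower. The neurofilament genes *Nefl* and *Nefm*, whose exons overlap each other and whose counts can therefore be confused, averaged 17.6 and 1.65 CPM. The growth cone protein gene *Stmn2* averaged 15.6 CPM, the neuronal splicing regulator *Rbfox3* 14.2, the vesicle calcium sensor *Syt1* 6.77, the AMPA receptor subunit *Gria2* 3.67, the surface glycoprotein *Thy1* 3.32 and the NMDA receptor subunit *Grin2b* 1.63. The interval of their log2 fold changes was wide: for *Thy1*, with the highest value at 1.41, the approximate 95% interval ran from -0.069 to 2.88, and for *Nefm*, with the lowest at -0.72, from -3.39 to 1.96. Among controls, the highest library exceeded the lowest by 2.21-fold for *Meg3* and by up to 100.2-fold, for *Nefl*. Without WT1, *Syt1* was called higher in mutants (log2 fold change 1.91, edgeR adjusted p = 0.0366, with a range of 0.0366 to 0.972 over its alternatives).

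A second list of 16 neuron genes, which did not enter the membership, gave the same order of libraries. Of its 15 genes that passed the count limit, none was called by edgeR or DESeq2 and none had an unadjusted p under 0.05. The summed CPM was 1114 in WT1 and 176 in WT4, and 865 in SmadKO1 and 348 in SmadKO3. The 2 genes of highest CPM were *Vamp2*, a vesicle SNARE, and *Olfm1*, a secreted neuronal glycoprotein, at log2 fold changes of -0.057 and 0.079. WT1 was the highest control for all 15, and SmadKO1 was the highest mutant for 13.

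Oligodendrocyte transcripts followed the same order of libraries in sum, but the genes of the class divided. The summed CPM was 4278 in WT1, 1598 in WT2, 963 in WT3 and 667 in WT4, and 3575 in SmadKO1, 1830 in SmadKO2, 1065 in SmadKO3 and 1113 in SmadKO4. The group means were 1877 ± 1648 CPM in controls and 1896 ± 1173 in mutants (SD, n = 4 each). None of the 9 members passed edgeR's test, beside 12.3% of all genes, 1 had an unadjusted p under 0.05, beside 28.7%, and DESeq2 called none, beside 20.7%. The median log2 fold change was 0.57, beside 0.011 over all genes, with 7 of 9 above 0, beside 50.6%.

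*Mbp*, the myelin basic protein gene, made up most of that sum, at 3463, 1214, 655 and 439 CPM in WT1 to WT4 and 2807, 1308, 815 and 860 in SmadKO1 to SmadKO4. Its log2 fold change was 0.005 (SE 0.655, edgeR adjusted p = 0.997). *Mobp*, a related basic protein gene of myelin, stood at 534, 167, 86.6 and 61.9 CPM in controls and at 470, 178, 134 and 115 in mutants (0.080, SE 0.705, edgeR adjusted p = 0.96). The mRNAs of both genes are known to be transported into oligodendrocyte processes. *Mbp* varied by 7.89-fold among controls and *Mobp* by 8.63-fold, whereas the ratio of *Mobp* to *Mbp* varied by 1.27-fold, from 0.132 to 0.168, over all 8 libraries.

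The other members of the class, singled out after their values were seen, followed that order less closely. Among controls, *Cnp*, a phosphodiesterase of myelin, varied by 1.58-fold and *Mag*, a myelin adhesion molecule, by 1.56-fold, a spread far narrower than that of *Mbp*. The ratio of *Cnp* to *Mbp* consequently ran from 0.050 in WT1 to 0.250 in WT4. In mutants the highest library was SmadKO1 for *Mbp*, *Mobp* and *Cnp*, SmadKO2 for *Mog*, *Mag*, *Mal*, *Ermn* and *Opalin*, and SmadKO4 for the tight junction gene *Cldn11*. *Mog*, a surface protein of myelin, averaged 5.51 ± 5.21 CPM in controls and 17.7 ± 14.98 in mutants (SD, n = 4 each; log2 fold change 1.68, edgeR adjusted p = 0.213). *Mal*, a proteolipid of myelin, had a log2 fold change of 1.26 (edgeR adjusted p = 0.239), *Opalin*, a myelin membrane glycoprotein, of 1.07 (0.422) and *Ermn*, a cytoskeletal protein of myelin, of 0.57 (0.663). *Cldn11* had the highest value, at 1.75 (approximate 95% interval 0.164 to 3.33, edgeR adjusted p = 0.139), from a mean of 2.74 CPM.

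Of 14 further oligodendrocyte genes, all passed the count limit and had a fold change above 0, with a median of 0.82, but none was called by edgeR. Of these, 3 had an unadjusted p under 0.05 (21.4%, beside 28.7% of all genes). DESeq2 called 2, *Aspa* and *Gjb1*, beside 20.7% of all genes it tested. The transcription factor gene *Olig1* had a log2 fold change of 0.38 (edgeR adjusted p = 0.699). SmadKO2 was the highest mutant for 10 of the 14, so the genes varied in part together and their shared sign does not count independent genes. Among 8 genes of oligodendrocyte precursors, none was called by edgeR or DESeq2 or had an unadjusted p under 0.05, and the median log2 fold change was 0.55.

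**Figure D2:**
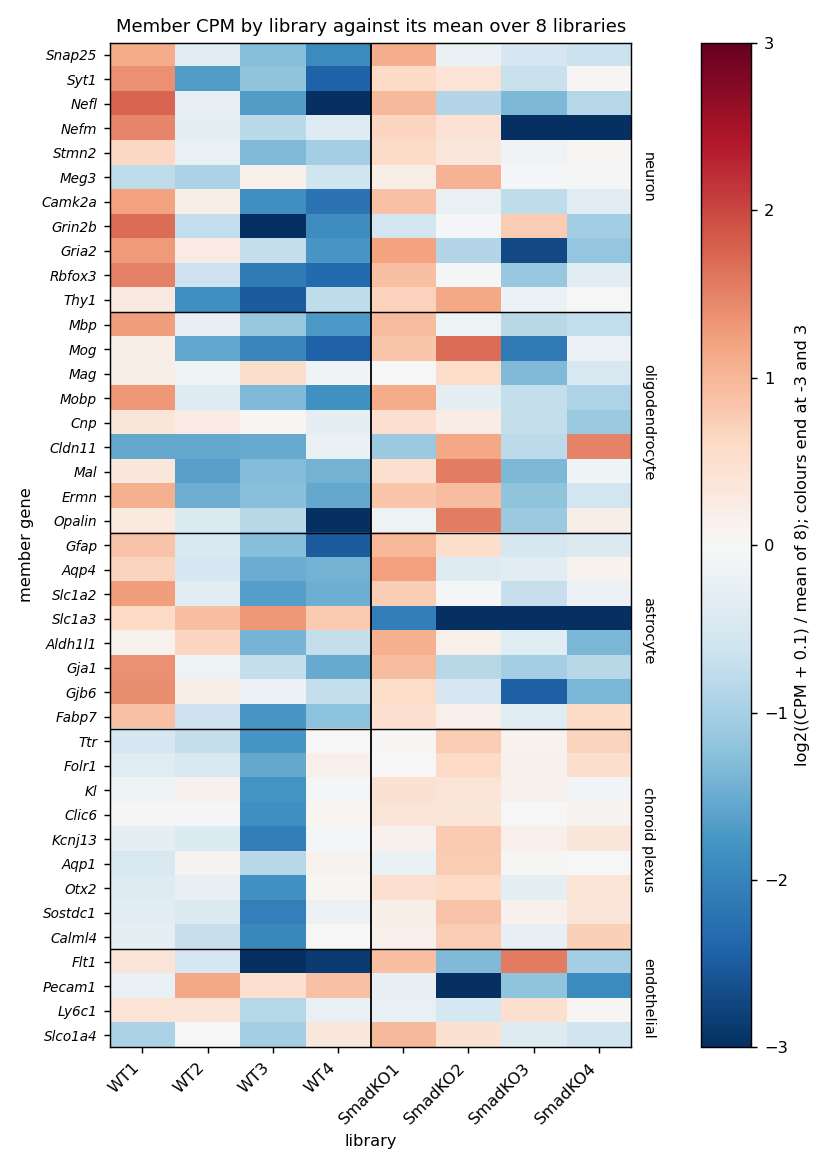
Each row is 1 of the 41 members, each column a library, and colour is the log2 ratio of CPM to the gene's mean over the 8 libraries, after adding 0.1 CPM. WT1 and SmadKO1 are red in most neuron, oligodendrocyte and astrocyte rows, *Slc1a3* is red in all controls and blue in all mutants, and WT3 is the bluest column of the choroid plexus rows.

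Among astrocyte transcripts, *Slc1a3* fell in the mutants and the other 7 did not pass the test. *Slc1a3* encodes GLAST, a glutamate transporter of astrocytes and radial glia, and lies on chromosome 15 from 8634124 to 8710764 (GRCm38, minus strand). It stood at 1083 CPM in WT1, 1324 in WT2, 1756 in WT3 and 1227 in WT4, and at 170 in SmadKO1, 59.4 in SmadKO2, 25.8 in SmadKO3 and 59.9 in SmadKO4. The groups did not overlap, and the gap between them was wider than the range within controls. The log2 fold change was -4.10 (SE 0.55, approximate 95% interval -5.34 to -2.86, edgeR adjusted p = 0.00163). *Slc1a3* was thus 1 member called lower of 41, and none was called higher, where 7.97% of all genes tested were called lower and 4.36% higher. DESeq2 called it as well, and it was called in each of the 15 alternative fits.

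The transporter gene *Slc1a2*, whose product GLT-1 takes up glutamate in astrocytes too, showed no such difference. It stood at 237 CPM in WT1, 79.0 in WT2, 31.8 in WT3 and 35.7 in WT4, and at 166 in SmadKO1, 94.9 in SmadKO2, 61.7 in SmadKO3 and 87.5 in SmadKO4. Its log2 fold change was 0.096 (SE 0.623, approximate 95% interval -1.31 to 1.502, edgeR adjusted p = 0.944). Per kilobase of exon, *Slc1a3* averaged 158 CPM in controls and 9.23 in mutants, and *Slc1a2* 7.31 and 7.81. In mutants the levels of the 2 transporters per kilobase were therefore close, and in controls *Slc1a3* was far the higher.

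The other astrocyte members took the order of the neuron genes. Summed without *Slc1a3*, they gave 528, 236, 104 and 99.96 CPM in WT1 to WT4 and 478, 262, 170 and 207 in SmadKO1 to SmadKO4. That sum was 0.856 to 1.54 of the summed neuron CPM in each library, a range of 1.80-fold, whereas the neuron sum itself ranged over 9.51-fold in controls. *Slc1a3* was 2.05, 5.6, 16.8 and 12.3 times this sum in WT1 to WT4, so that its level in controls did not follow the other astrocyte genes: WT3 held the most *Slc1a3* and WT1 the least. In mutants *Slc1a3* was 0.152 to 0.356 of the sum. Its highest and lowest mutant libraries, SmadKO1 and SmadKO3, were also the highest and lowest for the sum. The 13 microglia genes examined, when summed, were highest in WT3 and lowest in WT1 among controls. Among mutants, their sum was highest in SmadKO3 and lowest in SmadKO1, the reverse of *Slc1a3*. Transcription of *Slc1a3* in the microglia themselves was not tested.

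**Figure D3:**
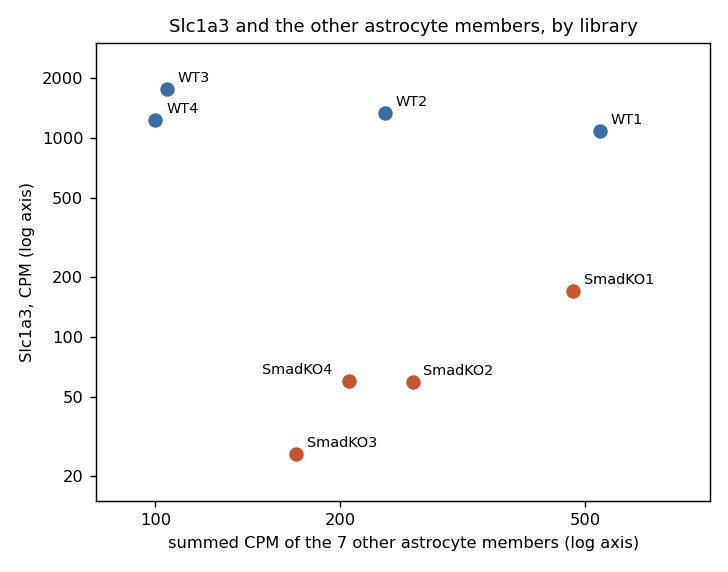
*Slc1a3* CPM against the summed CPM of the 7 other astrocyte members, both on log axes, for the 8 libraries (blue, WT; orange, SmadKO). The 4 controls lie between 1083 and 1756 CPM of *Slc1a3* whatever the sum, and the 4 mutants lie between 25.8 and 170.

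*Gfap*, the intermediate filament gene of astrocytes, averaged 33.1 ± 30.4 CPM in controls and 51.9 ± 26.1 in mutants (SD, n = 4 each; log2 fold change 0.65, edgeR adjusted p = 0.561). The water channel gene *Aqp4* had a log2 fold change of 0.73, the fatty acid binding protein gene *Fabp7* of 0.58 and the folate enzyme gene *Aldh1l1* of 0.27. The gap junction genes *Gja1* and *Gjb6* had values of -0.33 and -0.96. Their adjusted p-values in edgeR's test were 0.385 to 0.805. WT1 was the highest control for 6 of the 8 astrocyte members, the exceptions being *Slc1a3* and *Aldh1l1*, and SmadKO1 was the highest mutant for 7, all but *Fabp7*. Without WT1, *Fabp7* was called higher in mutants (log2 fold change 1.39, edgeR adjusted p = 0.0398, with a range of 0.0398 to 0.786 over its alternatives). Of 14 further astrocyte genes, none was called by edgeR or DESeq2, none had an unadjusted p under 0.05 and the median log2 fold change was 0.12. The 2 of highest CPM were *Aldoc*, a glycolytic aldolase, and *S100b*, a calcium-binding protein, at -0.012 and 0.65.

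Of the libraries that led the neural classes, WT1 also differed from the other controls in other readouts. SmadKO1 stood close to another mutant in mitochondrial share (SmadKO4, 4.38%) and in the microglia sum (SmadKO2, 19810 CPM). The share of counts on mitochondrial genes was 4.60% in WT1, against 0.819% to 1.88% in the other controls, and 3.04% to 4.56% in mutants, highest in SmadKO1. The summed CPM of the 13 microglia genes was lowest in WT1 among controls (42040, against 48180 to 64100) and lowest in SmadKO1 among mutants (19370, against 19810 to 24800). Haemoglobin and *Alas2* transcripts of red cells were also highest in WT1 among controls, at a sum of 3141 CPM, but in mutants SmadKO4 was highest, at 10860, and SmadKO1 lowest, at 450. The part of these readouts in the member results was not tested. When WT1 and SmadKO1 were both left out, a choice made after the data were seen, *Slc1a3* remained called and *Pecam1* was added.

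Choroid plexus transcripts had the highest sum of the classes and followed another order. *Ttr* held most of that sum, and the other genes of the class 0.0484 to 0.0807 of it. All 9 members had a fold change above 0, beside 50.6% of all genes, from 0.43 to 1.05 on the log2 scale. WT3 was the lowest control for each of the 9, so this and the shares below do not count independent genes. The median was 0.80, beside 0.011 over all genes. None passed edgeR's test, beside 12.3% of all genes. Of the 9, 5 had an unadjusted p under 0.05 (55.6%, beside 28.7% of all genes). DESeq2 called 2, *Ttr* and *Sostdc1*, where it called 20.7% of all genes it tested. The summed CPM was 18380 in WT1, 16030 in WT2, 7518 in WT3 and 25960 in WT4, and 26530 in SmadKO1, 43640 in SmadKO2, 27710 in SmadKO3 and 40720 in SmadKO4. The lowest mutant was above the highest control, by a margin far smaller than the range within either group. The mutant mean was 2.04 times the control mean, and 1.68 times without *Ttr*.

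*Ttr* encodes transthyretin, the thyroid hormone carrier that choroid plexus secretes into cerebrospinal fluid. It stood at 17060 CPM in WT1, 14730 in WT2, 7073 in WT3 and 24390 in WT4, and at 24690 in SmadKO1, 41270 in SmadKO2, 26110 in SmadKO3 and 38750 in SmadKO4. The values did not overlap, but WT4 and SmadKO1 were nearly equal. Its log2 fold change was 1.05 (SE 0.36, approximate 95% interval 0.239 to 1.86, edgeR adjusted p = 0.0903, with a range of 0.0221 to 0.202 over its alternatives). It was called by DESeq2 and, among the fits that left out a library, without WT4. *Folr1*, a folate receptor of the epithelium, stood at 227, 210, 102 and 325 CPM in WT1 to WT4 and at 291, 444, 323 and 424 in SmadKO1 to SmadKO4, with a log2 fold change of 0.78 (SE 0.32, edgeR adjusted p = 0.145). *Folr1* was 0.0133 to 0.0144 of *Ttr* in controls and 0.0108 to 0.0124 in mutants. The ratio of *Clic6*, another member of the class, to *Ttr* varied more, from 0.00742 to 0.0173 over all libraries.

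The other choroid plexus members lay between 28.9 CPM on average for the water channel gene *Aqp1* and 271 for *Kl*, which encodes klotho. *Sostdc1*, a secreted BMP antagonist, had a log2 fold change of 1.001 (edgeR adjusted p = 0.113), the calmodulin-like gene *Calml4* of 0.97 (0.14), the potassium channel gene *Kcnj13* of 0.91 (0.153), the homeodomain factor gene *Otx2* of 0.80 (0.185), *Kl* of 0.53 (0.379), the chloride channel family gene *Clic6* of 0.50 (0.404) and *Aqp1* of 0.43 (0.365). Of the *Kcnj13* exon bases, 49.1% overlap *Gigyf2* and the libraries were unstranded, so its counts are uncertain. WT3 was the lowest control for all 9 members, and WT4 was the highest for 8. SmadKO2 was the highest mutant for 7, and SmadKO1 for *Kl* and *Clic6*. Choroid plexus therefore took an order unlike that of the neuron class: the ratio of the 2 sums ran from 29.8 in WT1 to 400.0 in WT4.

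Of 15 further choroid plexus genes, all passed the count limit and had a fold change above 0 (median 0.79), and none was called by edgeR. Of these, 6 had an unadjusted p under 0.05 (40.0%, beside 28.7% of all genes). DESeq2 called 4, beside 20.7% of all genes it tested. The 2 of highest CPM were *Enpp2*, the autotaxin gene, at 0.59 (edgeR adjusted p = 0.277) and *Igfbp2*, an insulin-like growth factor binding protein gene, at 0.79 (0.117). WT3 was the lowest control for all 15, and SmadKO2 was the highest mutant for 10, so these shares do not count independent genes either. Their sum, mostly *Enpp2*, was highest in SmadKO1 (16790 CPM) and lowest in SmadKO4 (10880) among mutants. The member sum was instead lowest in SmadKO1. The 5 genes of ciliated ependyma that passed the count limit, of 7 listed, also had fold changes above 0 (median 0.79). None was called by edgeR, 2 had an unadjusted p under 0.05 (40.0%) and DESeq2 called 2. The 2 of highest CPM were *Rsph1* and *Cfap126*, which encode parts of motile cilia, at 0.69 and 0.79.

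**Figure D4:**
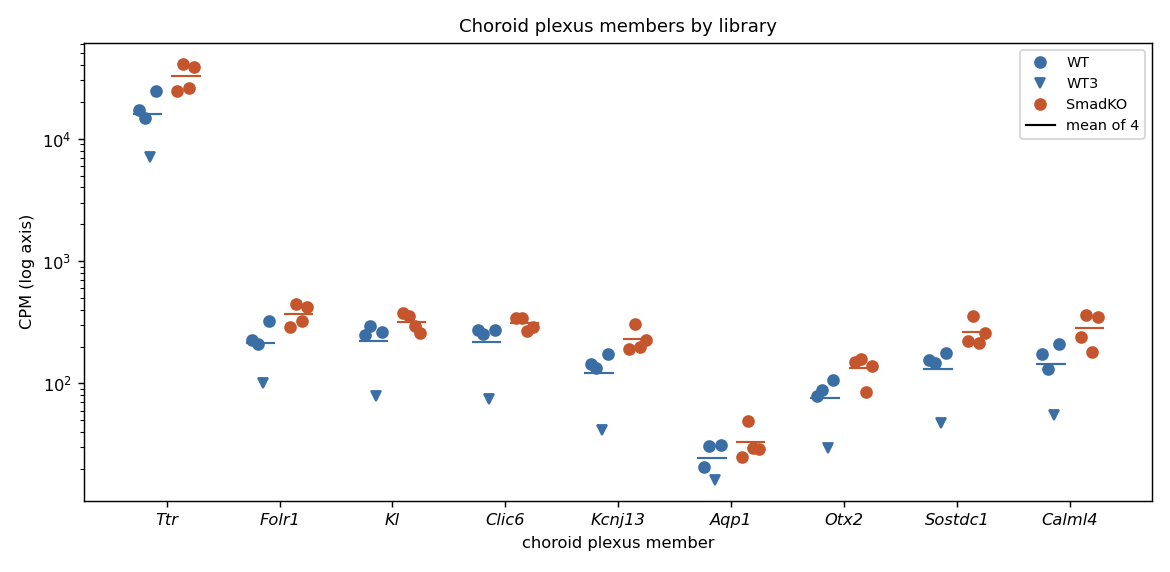
CPM of the 9 choroid plexus members on a log axis, for 4 control libraries (blue) and 4 mutant libraries (orange), with a triangle for WT3 and lines at the means of 4. The mutant mean is above the control mean for every gene, and WT3 is the lowest point of each gene.

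Endothelial transcripts were the scarcest class. The summed CPM of the 4 members that passed the count limit was 34.3, 46.8, 23.1 and 39.1 in WT1 to WT4 and 43.6, 28.0, 37.8 and 26.3 in SmadKO1 to SmadKO4. None passed edgeR's test, beside 12.3% of all genes, 1 had an unadjusted p under 0.05, beside 28.7%, and DESeq2 called 1, *Pecam1*, beside 20.7%. *Ly6c1*, a surface antigen gene of brain endothelium and monocytes, stood at 21.9, 21.5, 9.06 and 14.1 CPM in controls and at 14.1, 11.4, 22.9 and 16.9 in mutants (log2 fold change -0.028, SE 0.329, edgeR adjusted p = 0.971). It shares 32.8% of its 50-base words with other transcripts, mainly *Ly6c2*, so its counts are uncertain. *Slco1a4*, an organic anion transporter gene of the blood-brain barrier, stood at 5.76, 11.2, 5.45 and 13.9 CPM in controls and at 22.1, 15.6, 8.57 and 7.36 in mutants (0.56, SE 0.44, edgeR adjusted p = 0.457).

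*Pecam1*, an adhesion molecule gene of endothelium that leukocytes and platelets also use, stood at 5.11 to 13.3 CPM in controls and at 0.604 to 5.01 in mutants. The groups did not overlap, and the lowest control and the highest mutant were nearly equal. Its log2 fold change was -1.97 (SE 0.61, approximate 95% interval -3.34 to -0.600, edgeR adjusted p = 0.0664, with a range of 0.00837 to 0.164 over its alternatives). It was called by DESeq2, and by edgeR without SmadKO1 (-2.61). The VEGF receptor gene *Flt1* averaged 1.22 CPM, with an interval from -1.08 to 4.00 around a log2 fold change of 1.46. Of 16 further endothelial genes, 11 passed the count limit, 6 of them with a fold change above 0 and a median of 0.040, and *Robo4* and *Sox17* had no counts in any library. The glucose transporter gene *Slc2a1* was called lower, from 94.4 to 128 CPM in controls to 52.5 to 76.2 in mutants (-0.84, SE 0.17, edgeR adjusted p = 0.0123), and was the only one called by edgeR. With a mean of 84.7 CPM it had the highest level of that list, and the cells its transcripts came from were not tested. *Ctla2a*, a protease inhibitor family gene singled out after its values were seen, had a log2 fold change of 2.10 with no overlap between the groups (edgeR adjusted p = 0.0601). DESeq2 called *Slc2a1* and *Ctla2a*, where it called 20.7% of all genes it tested.

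Lists of other cells were set beside all genes, of which edgeR called 12.3%, and DESeq2 20.7% of those it tested. Of 4 mural cell genes that passed the count limit, of 11 listed, the receptor gene *Pdgfrb* was called lower, at 1.47 to 16.4 CPM in controls and 0.028 to 1.19 in mutants (log2 fold change -4.91, SE 1.18, edgeR adjusted p = 0.0275). The other 3 were not called, with log2 fold changes of 0.023 for *Vtn*, the mural gene of highest CPM, 0.86 for *Acta2* and -2.67 for *Rgs5*. DESeq2 called *Pdgfrb* and also *Kcnj8*, which did not pass the count limit and stood at no more than 1.35 CPM in any library. Of 8 lymphocyte genes, the T cell genes *Cd3e* and *Trbc2* were called higher by edgeR, at 1.87 and 1.72, where 4.36% of all genes were. The T cell genes *Cd3g* (1.79, edgeR adjusted p = 0.0534) and *Cd3d* (1.30, edgeR adjusted p = 0.121) were not, and DESeq2 called all 4. The B cell genes *Cd79a*, *Cd79b* and *Ms4a1* were called by neither. None of the 4 fibroblast, 4 neutrophil, 3 monocyte and 5 erythroid genes that passed the count limit was called by edgeR or DESeq2, and none had an unadjusted p under 0.05.

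Across the 41 members together, 30 had a fold change above 0 (73.2%, beside 50.6% of all genes tested), and the median was 0.50. Members of a class varied in part together by library, so the shares given here do not count independent genes. Of the 41, 8 had an unadjusted p under 0.05 (19.5%, beside 28.7% of all genes). For 5 members, *Slc1a3*, *Ttr*, *Kcnj13*, *Sostdc1* and *Pecam1*, the groups did not overlap, where the same was true of 22.1% of all genes tested. DESeq2 called 4 members, where it called 20.7% of all genes it tested. Members varied more within a group than most genes: the median ratio of the highest to the lowest library was 4.39 in controls and 3.15 in mutants, beside 1.88 and 1.93 over all genes. With library totals in place of TMM the median log2 fold change of all genes was 0.13.

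**Figure D5:**
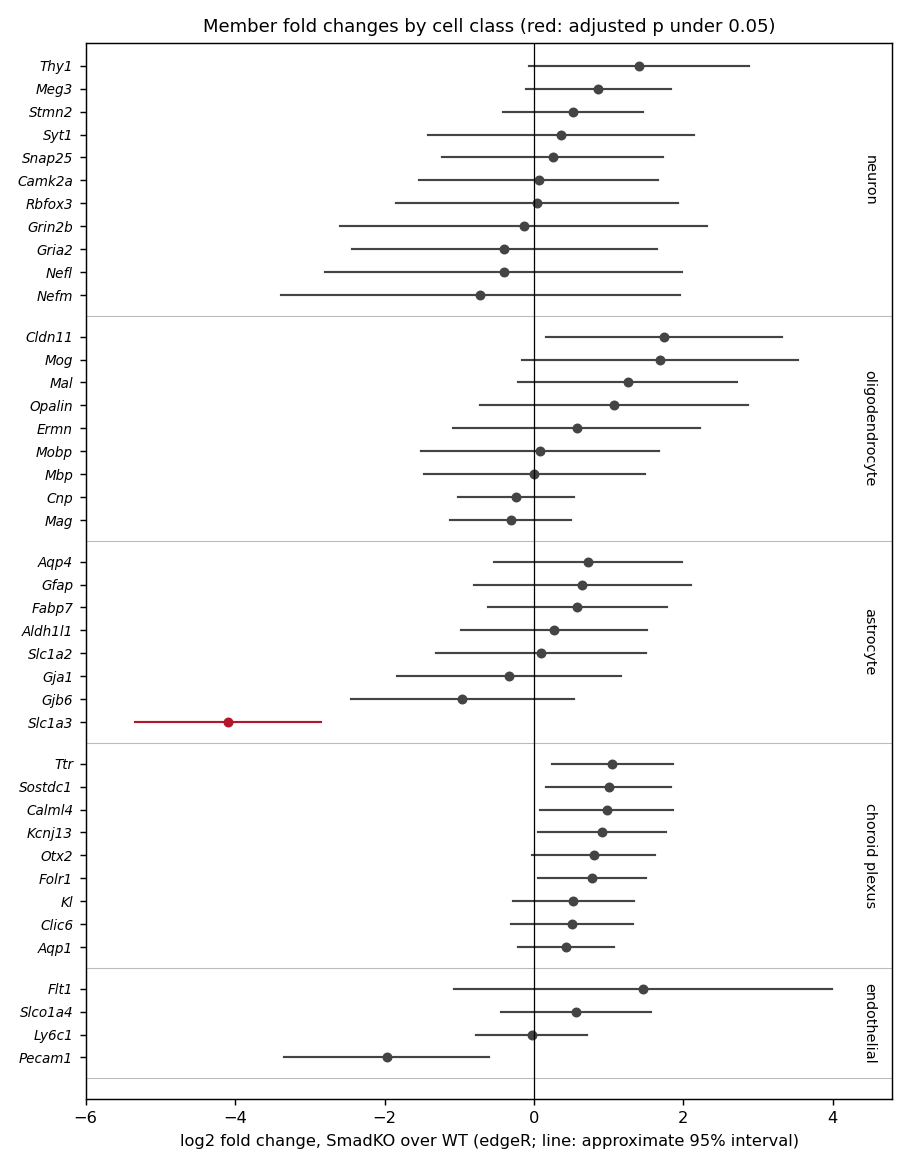
Log2 fold changes of the 41 members, mutants over controls, by class, with approximate 95% intervals from edgeR's standard errors. *Slc1a3* (red) is the only member with an adjusted p under 0.05. All 9 choroid plexus points lie to the right of 0, and most neuron, oligodendrocyte and astrocyte intervals span 0.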

How the data were processed

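Per the labels, RNA of 8 samples of sorted microglia, 4 WT and 4 SmadKO, was prepared as unstranded single-end Nextera XT libraries, whereas the Methods describe polyA-selected NEBNext paired-end libraries. The authors' pipeline, as the Methods give it, was alignment by Rsubread (mm10) and gene counting by featureCounts. The deposited values are raw counts per gene, not normalized. The submitters' processing notes also name DESeq2 1.28, and a deposited table of its comparison (log2 fold changes, standard errors and p-values) was not used here. No column of per-sample counts was left out.

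From the counts, edgeR 4.0.16 in R 4.3.3 was run on genes that reached 10 counts in 4 or more of the 8 libraries, with TMM factors, glmQLFit and glmQLFTest, no block, and Benjamini-Hochberg adjustment over all 20153 genes tested. An adjusted p under 0.05 made a call. Standard errors are the log2 fold change over the root of F, and intervals are approximate. The common biological coefficient of variation between samples was 0.542. At low counts, as for *Nefm* in SmadKO4 (1 count), counting noise adds to this variation. DESeq2 1.42.0, RLE factors, library totals, no filter, a filter in all 8 libraries, a replicate block and each library left out were the alternatives. The fit that left out WT1 and SmadKO1 together was chosen after seeing the data. Class sums are sums of TMM-scaled CPM over members that passed the filter, without a test.

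Members and gene lists were chosen with earlier results of these data known. Any member that passed the filter could be named, with every library's value for called members and for the 2 of highest CPM of each class, and of other lists the called genes and the 2 of highest CPM, with microglia, sex-linked and targeted genes as checks. Of the other lists, 2 genes enter the counts but are not reported singly here. Other genes named were singled out after their values were seen. Of the 55573 genes, 55394 matched GENCODE M21 (GRCm38), which gave positions, exon lengths, overlaps and shared 50-base words. Promoter windows are those of RefSeq (GRCm38.p6). The test was tried on simulated data, whose fold sizes were widened after a first run had recovered too few of the changed genes. Python 3.11.15, pandas, numpy and matplotlib made tables and plots. Reads carry no molecular identifiers and so are not independent molecules.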

Additional observations from a re-analysis of the deposited data

Results flagged for a closer look

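Of 92 sets of 4 values examined (41 members and 5 class sums in each group), 13 had a highest or lowest library that stood apart from the other 3 by Dixon's criterion for 4 samples. Chance gives about 1 in 20 such sets, and members of a class share the library that stands apart.

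In controls, WT1 stood above the other 3 for *Syt1* (17.6 CPM), *Nefm* (4.78), *Grin2b* (5.45), *Rbfox3* (40.9), *Mog* (13.2), *Mal* (20.99) and *Ermn* (15.1). In mutants, SmadKO1 stood above the other 3 for *Snap25* (144 CPM), *Nefl* (34.6) and *Gja1* (50.3), and SmadKO2 for *Meg3* (5.91). WT4 stood above the other controls for *Cldn11* (2.36 CPM), and WT3 stood below them for *Clic6* (74.0). The part of mitochondrial reads, or of any handling of single samples, in these values was not tested. No class sum stood apart by this criterion.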

How the results depend on the processing

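*Slc1a3* was called under all 15 alternatives, with a log2 fold change of -4.88 to -3.80 and an adjusted p of 7.73e-15 to 0.00928 (edgeR or DESeq2). It was the 1 member called in the main fit, and none was called higher. DESeq2 called 4, of which 2 were higher (*Ttr* and *Sostdc1*) and 2 lower. The filter of 10 counts in all 8 libraries, which left 38 members, called 2, both lower, with *Pecam1* added. With a library left out, 1 to 3 members were called, 0 to 2 of them higher and 1 to 2 lower. *Syt1* and *Fabp7* were added without WT1, *Ttr* without WT4 and *Pecam1* without SmadKO1. RLE factors, library totals and no filter left the count at 1. With the replicate number as a block, 4 members were called, 3 higher (*Ttr*, *Otx2* and *Calml4*) and 1 lower. The numbers are not shown to pair the samples: same-numbered libraries deviated together with r = 0.216, -0.065, 0.335 and 0.264 for numbers 1 to 4, across genes, and WT2 correlated best with SmadKO1. Over all genes, DESeq2 called 4751 and the block 2383, against 2485, and fits without 1 library 1567 to 2499.

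For 13 members, none of them called, the sign of the log2 fold change was not stable, and the cause was not tested. It changed with the replicate block for *Nefl* (0.45) and *Grin2b* (0.95), without a filter for *Mbp* (-0.003) and with library totals for *Ly6c1* (0.056). With libraries left out, the values ranged from -0.31 to 1.14 for *Snap25*, -1.21 to 1.12 for *Nefl*, -1.37 to 0.12 for *Nefm*, -0.39 to 0.92 for *Camk2a*, -0.59 to 1.91 for *Grin2b*, -1.64 to 0.32 for *Gria2*, -0.43 to 1.51 for *Rbfox3*, -0.54 to 0.91 for *Mbp*, -0.57 to 1.09 for *Mobp*, -0.24 to 1.07 for *Slc1a2*, -0.25 to 0.66 for *Aldh1l1*, -1.06 to 0.52 for *Gja1* and -0.23 to 0.20 for *Ly6c1*. The other 28 members kept their sign, the 9 choroid plexus genes among them.

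The log2 ratio of summed CPM, mutants over controls, was -2.15 for the astrocyte class, but 0.20 without *Slc1a3* and -0.29 as a mean of log2(CPM + 1), since *Slc1a3* held most of the sum in controls. The ratio of the choroid plexus class was 1.03, or 2.04-fold, and without *Ttr* it was 1.68-fold. With *Ttr* kept and 1 library left out, it ranged from 0.78 without WT3 to 1.31 without WT4. That of the neuron class was 0.12 and ranged from -0.33 without SmadKO1 to 1.04 without WT1. That of the oligodendrocyte class was 0.015 and ranged from -0.49 to 0.82 without the same libraries. With 4 libraries a group and this spread, moderate changes of neuron, oligodendrocyte and endothelial transcripts could not be told from none.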
